A study of Mus musculus with 36 samples.

Results

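The first day of reoxygenation was compared with the last day of chronic hypoxia in whole mouse lung, using all genes on the array. Day 22 had 4 arrays, on which lungs of BALB/c mice kept at 0.5 atm for 21 days, followed by 1 day at normal sea-level pressure, were hybridised against lungs of time-matched control mice. Day 21 had 4 arrays, on which lungs of BALB/c mice taken at the end of 21 days at 0.5 atm were hybridised against their own time-matched controls. These are 8 of the 36 spotted 2-colour cDNA arrays of the series, and each RNA on them was a pool from 5 mice. The quantity is the mean log2 ratio of day 22 minus that of day 21, with a term for replicates 1 and 2 against replicates 3 and 4, for every feature with values on at least 3 arrays of each day. Spots with a single gene symbol were averaged by gene, which gave 12150 tested features, and spots annotated to a hemoglobin gene were set apart because they move as a single signal. Each day has its own control pool, so a difference between the days also holds any difference between the control pools. Positive ratios are likely, but not certain, to mean higher in the exposed lung, because that direction rests on the order in which the labels name the samples and dyes. The labels do not say whether the 4 arrays of one day used RNA of different animals, so the p-values measure array-to-array spread alone, which may be technical. In bulk lung, fewer cells of a type and less RNA per cell cannot be told apart, and ratios against another lung do not show whether a lung marker is present.

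Breathing thin air for weeks makes the small pulmonary arteries constrict and then thicken, with smooth muscle, collagen and elastic fibres laid down around the vessels, and it raises the number of red cells in the blood. Cells sense low oxygen largely through the hypoxia-inducible transcription factors, which are degraded when oxygen is present, so return to sea level removes the stimulus within minutes while the vessel wall and the red cell mass change over days to weeks. Neutrophils and monocytes circulate through the lung in large numbers, and their transcripts form part of any whole-lung RNA.

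Of the 12150 features, 142 passed an adjusted p of 0.05 in limma (1.17%). The higher ones numbered 85 (0.7% of all features) and the lower ones 57 (0.469%). Of the higher ones, 28 were hemoglobin-annotated or followed the hemoglobin signal. The remaining 114 calls split evenly, 57 higher and 57 lower, and comprised 87 named genes and 27 spots without a single gene symbol. The 4 arrays of day 22 did not overlap the 4 of day 21 for 96 of the 114, where 4.47% of all features had arrays that did not overlap, 1.98% with day 22 above and 2.49% with day 22 below.

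Most of these 114 features stood away from the control level at day 21 and nearer to it at day 22. Among the 57 that were higher, 54 had a mean below 0 at day 21, and the median log2 ratio was 0.07 at day 22 and -0.44 at day 21. Among the 57 that were lower, 56 had a mean above 0 at day 21, and the median was -0.14 at day 22 and 0.40 at day 21. The distance from 0 was smaller at day 22 for 89 of the 114, and for 7058 of all 12112 features apart from hemoglobin. Against their own controls, 33 of the 114 passed at day 22 and 98 at day 21, where 2.81% of all features passed at day 22 and 11.4% at day 21. A call here needs a difference between the days, so these shares describe the called features and are not a test of them.

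**Figure D1:**
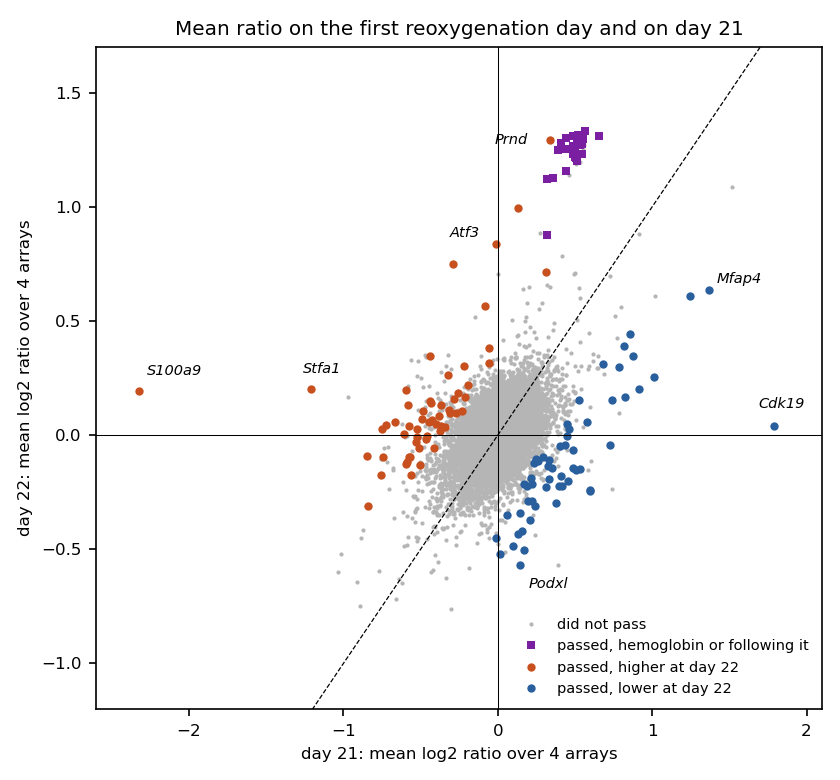
Mean log2 ratio of exposed over control lung at day 22 (vertical axis) and at day 21 (horizontal axis), each over 4 arrays, for the 12150 tested features; the dashed line marks equal ratios. Most of the 57 higher (orange) and 57 lower (blue) features lie near the horizontal line of 0 at day 22 and away from the vertical line of 0 at day 21, while the hemoglobin spots and the features that follow them (purple squares) lie above 0 on both days.

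The largest difference on the array belonged to S100a9, which encodes a calcium-binding protein that makes up much of the cytosol of neutrophils and is also found in monocytes. Its log2 ratios were 0.13, 0.07, 0.32 and 0.26 on the day 22 arrays, against -2.59, -2.66, -2.15 and -1.88 on the day 21 arrays. All day 22 arrays lay slightly above the control level and all day 21 arrays far below it. The difference was 2.52 ± 0.10 (SE), a 5.72-fold higher ratio (adjusted p = 8.2e-07). Across the time course the S100a9 mean moved in both directions within hypoxia, with 0.31 at day 1, -2.63 at day 3, -0.19 at day 7, -2.72 at day 14 and -2.32 at day 21, and after return to sea level it was 0.19 at day 22, -0.66 at day 24, -2.97 at day 28 and -3.25 at day 35. A day near the control level was therefore also seen during hypoxia.

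S100a9 was 1 of 4 among the 6 measured members of the neutrophil list that rose, and none fell, where 0.7% of all features rose. The list also holds Selp, an adhesion molecule of platelets and endothelium, so its median and means are not of neutrophil genes alone. The median difference of the 6 was 0.44, against -0.01 over all features. Ltf, the iron-binding lactoferrin of neutrophil granules, had log2 ratios of 0.62, 0.67, 0.47 and 0.49 at day 22, against 0.01, -0.06, -0.21 and -0.07 at day 21 (difference 0.65 ± 0.07, adjusted p = 0.0025). The day 22 arrays of Ltf lay above the control level and its day 21 arrays around it. Fcgr3, an Fc receptor of phagocytes, had ratios of 0.03, 0.07, 0.03 and 0.06 at day 22 and -0.42, -0.42, -0.44 and -0.32 at day 21 (0.45 ± 0.07, adjusted p = 0.011). Its call was lost without replicate 1 (adjusted p = 0.052) or replicate 2 (adjusted p = 0.081) of day 22. Lcn2, a siderophore-binding protein also stored in neutrophil granules, had ratios of 0.57, 0.62, 0.15 and 0.18 at day 22 and 0.32, 0.12, -0.37 and -0.30 at day 21, so that the arrays of the days overlapped (0.44 ± 0.07, adjusted p = 0.023, at most 0.11 without 1 array). Csf3r, the receptor for granulocyte colony-stimulating factor, differed by 0.03 and Selp by 0.26, and neither passed. The mean over the 6 markers was 0.19 to 0.28 on the day 22 arrays and -0.54 to -0.48 on the day 21 arrays. S100a9 weighs most in the day 21 mean, at -2.32, where Ltf, Fcgr3 and Lcn2 averaged -0.08, -0.40 and -0.06. Within hypoxia these markers did not move together. At day 3 S100a9 and Fcgr3 averaged -2.63 and -0.45, and Ltf and Lcn2 1.515 and 0.75. The number of markers that passed was 2 to 4 when any 1 array was left out, 2 without the pair term, 2 in replicates 1 and 2 alone and 1 in replicates 3 and 4 alone.

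Further genes that the naming rule took for the size of their increase belong to none of the lists. Stfa1, a stefin that inhibits cysteine proteases, had values on 3 arrays a day, at 0.37, 0.68 and -0.44 on day 22 and -0.61, -1.01 and -2.01 on day 21 (1.41 ± 0.14, adjusted p = 0.0037). Its adjusted p was 0.20 in the fit with all 36 arrays and 0.47 without the pair term. Ms4a6d, a membrane protein of macrophages and monocytes, stood at 0.18, 0.26, 0.19 and 0.15 on day 22 and at -0.61, -0.60, -0.55 and -0.63 on day 21 (0.79 ± 0.07, adjusted p = 0.00058). For Ms4a6d the arrays of each day agreed closely, with an SD of 0.05 at day 22 and 0.03 at day 21. Plac8, a cysteine-rich protein of myeloid cells, had ratios of 0.01, -0.12, -0.10 and -0.16 on day 22 and -0.76, -0.99, -0.98 and -0.68 on day 21 (0.76 ± 0.09, adjusted p = 0.0043). Lilr4b, a leukocyte immunoglobulin-like receptor, differed by 0.61 ± 0.11 (adjusted p = 0.033, at most 0.14 without 1 array). Ppbp, a chemokine precursor stored in platelets, averaged 0.06 on 3 arrays of day 22 and -0.67 on 4 of day 21 (0.69 ± 0.13, adjusted p = 0.038). The adjusted p of Ppbp was 0.055 with the replicate number as a block and at most 0.16 without 1 array.

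Of the 13 measured macrophage and monocyte markers, 3 rose and none fell, and the median difference was 0.12, where 0.7% of all features rose. Fcgr3 is among the 3 as well as among the neutrophil markers. The count of increases was 0 to 3 when any 1 array was left out. It was 0 without the pair term and in replicates 3 and 4 alone. Lyz2, a lysozyme of macrophages that alveolar type II cells also make, had ratios of 0.44, 0.45, -0.04 and 0.20 at day 22 and -0.08, -0.49 and -0.39 on the 3 measured arrays of day 21 (0.52 ± 0.09, adjusted p = 0.026, at most 0.12 without 1 array). Cybb, the catalytic subunit of the phagocyte oxidase, averaged -0.17 ± 0.11 at day 22 and -0.56 ± 0.23 at day 21 (SD, n = 4 each), a difference of 0.39 ± 0.07 (adjusted p = 0.033, 0.073 with the replicate number as a block and at most 0.17 without 1 array). The share of these differences that reflects the number of such cells in the lung, in the exposed or in the control pool, was not tested. The only called member of the 8 alveolar type II markers was Lyz2.

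Hemoglobin transcripts moved as a single signal, and all 29 hemoglobin-annotated spots were higher at day 22. Hemoglobin carries oxygen in red cells, and its messenger RNA in whole lung comes with the blood, chiefly from reticulocytes. The mean log2 ratio over the 29 spots was 1.5, 1.39, 1.01 and 1.07 on the day 22 arrays, against 0.94, 0.42, 0.10 and 0.55 on the day 21 arrays. Every day 22 array lay above every day 21 array, and all 8 lay above the control level. The difference was 0.74, from 1.24 ± 0.24 at day 22 and 0.50 ± 0.35 at day 21 (SD, n = 4 each), with p = 0.0286 in an exact two-sided permutation test over the 8 arrays, the smallest p that its 70 arrangements allow. With the arrays paired by replicate number the exact p was 0.125, the smallest that 4 pairs allow, and all 4 pairs had the same direction. The spots differed by 0.66 to 0.86, and the median correlation between any pair of them over the 36 arrays was 0.968, so they are not separate evidence. Hbb-b1, an adult beta chain, differed by 0.79 ± 0.11 (adjusted p = 0.0082), Hbb-y, an embryonic beta-like chain, by 0.77 ± 0.12 (adjusted p = 0.015), and Hba-x, an embryonic alpha-like chain, by 0.68 ± 0.15 without passing (adjusted p = 0.070). Hbb-y lost its call without replicate 1 (adjusted p = 0.057) or replicate 2 (adjusted p = 0.053) of day 22. These cDNA spots can share sequence between the chains, and the measurements do not tell the chains apart.

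The profile of 13 further features correlated with the hemoglobin signal over the 36 arrays with r of at least 0.9, and 10 of them passed, all higher. The named ones were Got2, the mitochondrial aspartate aminotransferase (0.80 ± 0.08, adjusted p = 0.0018), Phtf1 (0.68 ± 0.11, adjusted p = 0.015, at most 0.080 without 1 array) and Vim, the intermediate filament vimentin (0.31 ± 0.11, adjusted p = 0.27). What these spots hold was not tested. The hemoglobin mean also varied within hypoxia, at 1.27, 0.73, 1.5, 0.90 and 0.50 on days 1, 3, 7, 14 and 21, and was 1.24, 0.17, -0.56 and 1.55 on days 22, 24, 28 and 35.

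Erythroid genes other than hemoglobin moved less. Of the 12 measured, 1 rose and none fell, where 0.7% of all features rose. The median difference of the 12 was 0.11, and their mean was 0.11 to 0.17 on the day 22 arrays and -0.05 to 0.01 on the day 21 arrays. The gene that rose was Tfrc, the transferrin receptor through which red cell precursors and dividing cells take up iron, with -0.09, 0.06, -0.02 and -0.08 at day 22 against -0.61, -0.62, -0.25 and -0.63 at day 21 (0.49 ± 0.10, adjusted p = 0.037, at most 0.18 without 1 array). Tfrc was near the control level at day 22 and below it at day 21. Alas2, the erythroid form of the first enzyme of heme synthesis, differed by 0.44 (adjusted p = 0.052), Gata1, the erythroid transcription factor, by 0.20 and the anion exchanger Slc4a1 by 0.07, and none of them passed. In the heme and iron list of 20 measured genes 2 rose and none fell, Tfrc and Slc40a1. Slc40a1 encodes ferroportin, which exports iron from macrophages, and its ratios were 0.02, 0.14, 0.21 and 0.23 at day 22, against -0.42, -0.44, -0.40 and -0.52 at day 21 (0.59 ± 0.07, adjusted p = 0.0044). The 4 arrays lay on opposite sides of 0 on the 2 days.

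Some endothelial genes were lower. Of 8 measured endothelial markers 3 fell and none rose, with a median difference of -0.23, where 0.469% of all features fell. The count of decreases was 2 to 3 when any 1 array was left out and 2 in replicates 1 and 2 alone. It was 0 without the pair term and in replicates 3 and 4 alone. Emcn, a sialomucin of venous and capillary endothelium, had log2 ratios of 0.50, 0.51, -0.02 and 0.03 at day 22, against 1.27, 1.23, 0.77 and 0.80 at day 21 (-0.76 ± 0.06, adjusted p = 0.00058). Within each replicate pair the day 22 arrays lay about the same distance below the day 21 arrays, with differences of -0.74 in replicates 1 and 2 and -0.78 in replicates 3 and 4. Gja4, a connexin of arterial endothelium, had ratios of -0.09, -0.29, -0.65 and -0.66 at day 22 and 0.52, 0.38, -0.13 and -0.13 at day 21, which overlap across the pairs but not within them (-0.58 ± 0.08, adjusted p = 0.0062). Cdh5, the cadherin of endothelial junctions, had ratios of -0.28, -0.40, -0.22 and -0.26 at day 22 and 0.29, 0.05, 0.27 and 0.26 at day 21 (-0.51 ± 0.08, adjusted p = 0.012, and 0.081 without replicate 2 of day 22). Cd93, Car4, Cd34, Ednrb and Esam did not pass, and Cd93 had the opposite sign (0.50). Outside the list, Podxl, another sialomucin of endothelium, stood at -0.74, -0.64, -0.38 and -0.51 at day 22 and at 0.10, 0.25, 0.29 and -0.06 at day 21 (-0.72 ± 0.10, adjusted p = 0.0093). Podxl passed against its control at day 22 (adjusted p = 0.0019) and did not at day 21 (adjusted p = 0.21). The call between the days was lost without replicate 1 (adjusted p = 0.050) or replicate 2 (adjusted p = 0.058) of day 22. Cd300lg, a surface protein of endothelium also outside the list, went the other way (0.56 ± 0.11, adjusted p = 0.041). Its ratios were -0.32, -0.35, 0.08 and 0.22 at day 22 and -0.92, -0.20 and -0.61 at day 21, which overlap. Cd300lg was named after its values were seen.

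Several genes of the vessel wall and matrix stood lower at day 22. Mfap4, a microfibril-associated glycoprotein of elastic fibres, had ratios of 0.87, 0.83, 0.49 and 0.36 at day 22, against 1.64, 1.80, 1.17 and 0.85 at day 21 (-0.73 ± 0.10, adjusted p = 0.0065). It remained above the control level on all 4 arrays of day 22, and the lowest day 21 array fell within the range of day 22. Sparc, a collagen-binding matricellular protein, had ratios of 0.28, 0.16, 0.07 and 0.12 at day 22 and 0.97, 0.92, 0.64 and 0.43 at day 21 (-0.58 ± 0.09, adjusted p = 0.011). Its call was lost without replicate 1 (adjusted p = 0.055) or replicate 2 (adjusted p = 0.067) of day 22. These 2 were the only members of 15 elastic fibre, matricellular and proteoglycan genes that passed, and the list's median difference was -0.12. Over all features 0.469% fell. Tnc, which encodes tenascin C, averaged 0.56 ± 0.05 at day 22 and 0.80 ± 0.14 at day 21 (SD, n = 4 each), with arrays that did not overlap, but the difference of -0.24 did not pass (adjusted p = 0.27).

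Of 13 measured genes in the collagen list 2 fell and none rose, where 0.469% of all features fell. Both were chains of basement membrane collagen, and the list's median difference was -0.26. Of the 13 differences 10 were negative, 8 of them at an unadjusted p under 0.05. The 3 positive ones were Col5a2 (0.31), Col12a1 (0.205) and P4hb (0.0067), 1 of them at that p. The count of decreases that passed was 1 to 2 when any 1 array was left out. It was 0 without the pair term and in replicates 3 and 4 alone. Col4a2 had ratios of 0.47, 0.32, 0.03 and -0.01 at day 22 and 1.21, 1.30, 0.65 and 0.49 at day 21 (-0.71 ± 0.09, adjusted p = 0.0044). Col4a1 had 0.44, 0.48, 0.31 and 0.15 at day 22 and 1.08, 1.19, 0.74 and 0.49 at day 21 (-0.53 ± 0.09, adjusted p = 0.023, at most 0.12 without 1 array). The fibrillar collagen genes Col1a1 (-0.52, adjusted p = 0.14) and Col1a2 (-0.43, adjusted p = 0.065) had arrays that did not overlap and did not pass. Of 13 smooth muscle contractile genes none passed in limma, although 12 of the 13 differences were negative, 8 of them at an unadjusted p under 0.05, and the median was -0.25. Of all 12150 features, 6333 had a negative difference, and 6.1% were higher and 6.61% lower at that unadjusted p. Among the smooth muscle genes Cnn1, calponin, averaged -0.31 ± 0.07 at day 22 and -0.02 ± 0.19 at day 21 (SD, n = 4 each). Its adjusted p was 0.12 for the difference. The mean over the 13 genes was -0.14 to -0.08 on the day 22 arrays and 0.00 to 0.20 on the day 21 arrays.

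**Figure D2:**
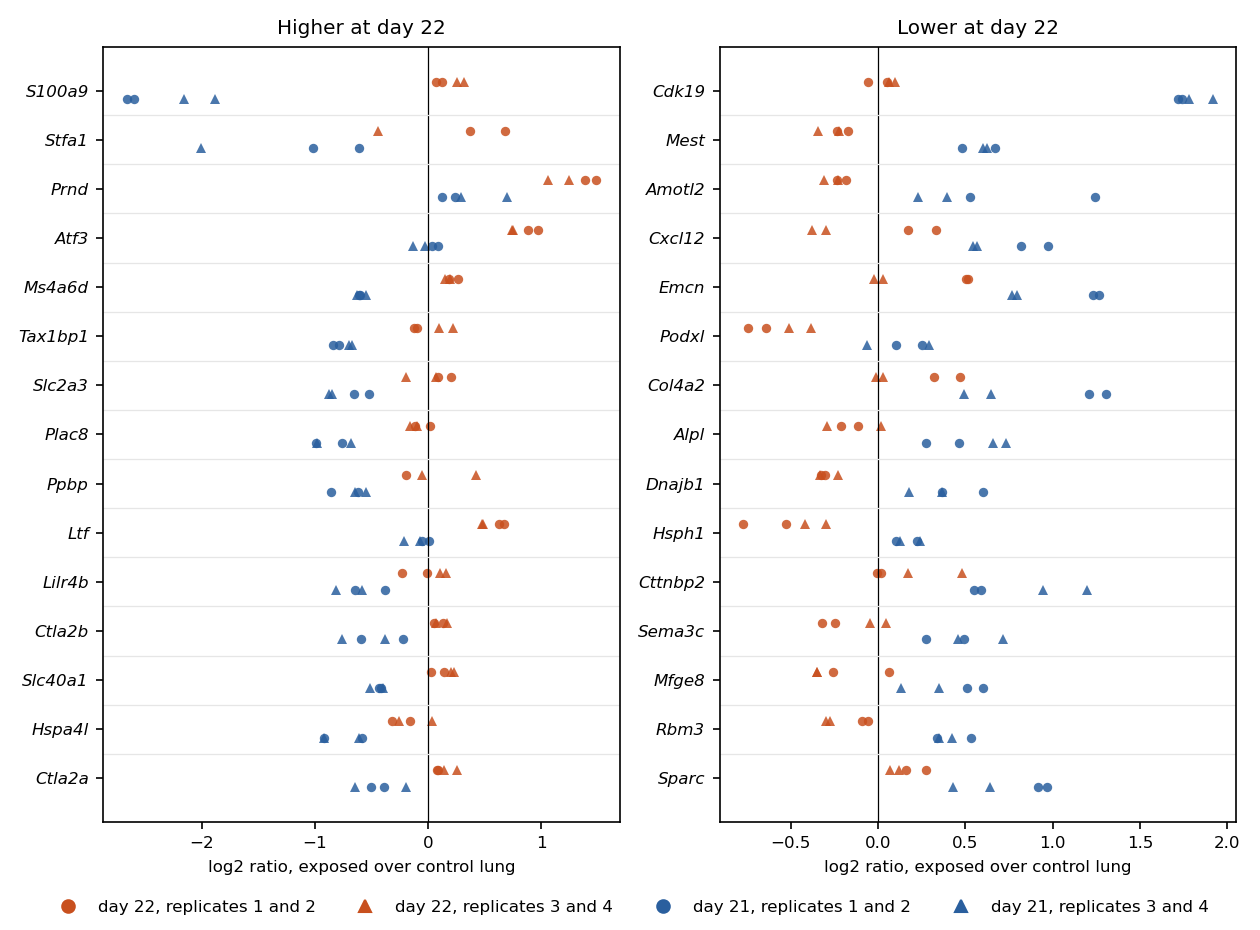
Log2 ratio of exposed over control lung on each array of day 22 (orange, upper line of each gene) and day 21 (blue, lower line) for the 15 named genes with the largest increase and the 15 with the largest decrease; circles are replicates 1 and 2 and triangles replicates 3 and 4. The arrays of the days do not overlap for these genes, which the rule for naming them required, and for Cxcl12, Emcn, Col4a2 and Amotl2 the replicate pairs stand apart within a day.

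The largest decrease belonged to Cdk19, which encodes a cyclin-dependent kinase of the Mediator complex. Its log2 ratios were -0.05, 0.05, 0.10 and 0.06 at day 22, against 1.74, 1.72, 1.92 and 1.78 at day 21. The difference was -1.75 ± 0.07 (adjusted p = 8.2e-07), a ratio 0.298 times that of day 21. It came from 1 spot and had nearly the same size in replicates 1 and 2 (-1.73) and in replicates 3 and 4 (-1.77). The Cdk19 mean was 1.5 to 1.95 at all 5 time points in hypoxia and -0.15 to 0.28 at all 4 after return to sea level.

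Several other genes fell to about the control level or just below it. Mest, an imprinted gene of the hydrolase family, had ratios of -0.24, -0.17, -0.22 and -0.34 at day 22 and 0.67, 0.48, 0.63 and 0.60 at day 21 (-0.84 ± 0.07, adjusted p = 0.00080). Cxcl12, the chemokine ligand of the receptor Cxcr4, had 0.33, 0.17, -0.30 and -0.38 at day 22 and 0.97, 0.82, 0.56 and 0.54 at day 21 (-0.77 ± 0.08, adjusted p = 0.0025). Mfge8, which bridges dying cells to phagocytes, had 0.06, -0.26, -0.35 and -0.35 at day 22 and 0.60, 0.51, 0.13 and 0.35 at day 21 (-0.62 ± 0.09, adjusted p = 0.0093). The arrays of the days did not overlap for any of these 3 genes, which the rule that named them required. Alpl, tissue-nonspecific alkaline phosphatase, differed by -0.68 ± 0.10, Cttnbp2, a cortactin-binding protein, by -0.65 ± 0.09 and Sema3c, a secreted semaphorin, by -0.63 ± 0.08, with adjusted p-values of 0.0093, 0.0093 and 0.0069. Amotl2, an angiomotin-like junction protein, differed by -0.84 ± 0.15 (adjusted p = 0.031, at most 0.14 without 1 array), and 1 array of day 21 stood at 1.24 where the other 3 lay between 0.23 and 0.53. Rbm3, an RNA-binding protein induced by cold, had -0.06, -0.09, -0.27 and -0.30 at day 22 and 0.53, 0.34, 0.35 and 0.43 at day 21 (-0.59 ± 0.08, adjusted p = 0.0055). It was the only called member of the 78 measured genes in the splicing factor list, where 0.469% of all features fell. That list also takes in genes by the name Rbm, and Rbm3 is not an established splicing factor.

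Several heat shock genes fell. They encode chaperones that hold or refold damaged proteins, and heat shock factor raises their transcription through repeats of a short element in their promoters. Of 29 measured heat shock and cytosolic chaperone genes 4 fell and 1 rose, with a median difference of -0.13. Of the 29 differences 24 were negative, 13 of these at an unadjusted p under 0.05. Of all 12150 features 0.469% fell, 6333 had a negative difference and 6.61% were lower at that unadjusted p. The count of decreases was 4 in each fit that left out 1 array, in the fit with the replicate number as a block and in the fit with all 36 arrays, against 3 in replicates 1 and 2 alone, 1 without the pair term and 0 in replicates 3 and 4 alone. Dnajb1, a co-chaperone of the Hsp40 family, had log2 ratios of -0.33, -0.31, -0.23 and -0.33 at day 22 and 0.37, 0.60, 0.37 and 0.18 at day 21 (-0.68 ± 0.09, adjusted p = 0.0062). Hsph1, a chaperone of the Hsp110 family, had -0.77, -0.53, -0.42 and -0.30 at day 22 and 0.10, 0.22, 0.13 and 0.24 at day 21 (-0.68 ± 0.09, adjusted p = 0.0067). Bag3, a co-chaperone that binds Hsp70 and is induced by stress, had 0.03, 0.00, -0.15 and -0.14 at day 22 and 0.53, 0.61, 0.31 and 0.51 at day 21 (-0.55 ± 0.07, adjusted p = 0.0057). Bag3 was thus near the control level at day 22, while Dnajb1 and Hsph1 were below it (adjusted p = 0.035 and 0.0019 against their control). Dnaja1, another Hsp40 co-chaperone, was named after its values were seen, with -0.29, -0.28, -0.28 and -0.31 at day 22 and 0.17, 0.16, 0.20 and 0.26 at day 21 (-0.49 ± 0.06, adjusted p = 0.0067). The 1 member that rose was Hspa4l, a relative of Hsph1, with -0.32, -0.16, 0.03 and -0.26 at day 22 and -0.92, -0.58, -0.61 and -0.92 at day 21 (0.58 ± 0.11, adjusted p = 0.035, at most 0.16 without 1 array).

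The core of the heat shock element, searched as GAANNTTC on both strands of the RefSeq promoter windows (GRCm38.p6, 250 bases before to 50 after each annotated start), was found at Dnaja1, Hsph1 and Bag3. It was not found in the windows of Dnajb1 and Hspa4l. These stretches are shown because they belong to the chaperone genes that fell, with the match in capitals. Dnaja1 has 3 windows and only the first held a match, Hsph1 has 2 overlapping windows that share 1 match, and Bag3 has 1 window. The Dnaja1 stretch is chr4:40722308-40722387 on the plus strand, before the start, the Hsph1 stretch is chr5:149636287-149636316 on the minus strand and the Bag3 stretch is chr7:128523603-128523632 on the plus strand, both just after the start.
Dnaja1: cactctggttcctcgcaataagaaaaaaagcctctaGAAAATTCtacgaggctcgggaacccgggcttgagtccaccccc
Hsph1: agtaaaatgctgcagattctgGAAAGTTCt
Bag3: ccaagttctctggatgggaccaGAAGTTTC
The motif was present in 7.86% of all 32851 promoter windows in the table. Among the 36 lower named genes with a window (of 43), 10 had it in at least 1 window, or 27.8%, against 2 of the 36 higher named genes with a window (of 44), or 5.56%, and 371 of 5490 tested genes with a window, or 6.76%. The lower genes have more windows, and counted by window the shares were 23.1% of 52 windows, 4.65% of 43 and 5.52% of 7026. The other 7 of the 10 were Sgk1, Igfbp5, Top2a and Pfkl, which the naming rule covers, and Rcan1, Fhl1 and Stbd1, picked here for the match. Within the heat shock list the motif was found for 3 of the 4 members that fell and for 7 of the 19 with a window that did not pass. A match describes the letters of the window and not the binding of a factor.

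**Figure D3:**
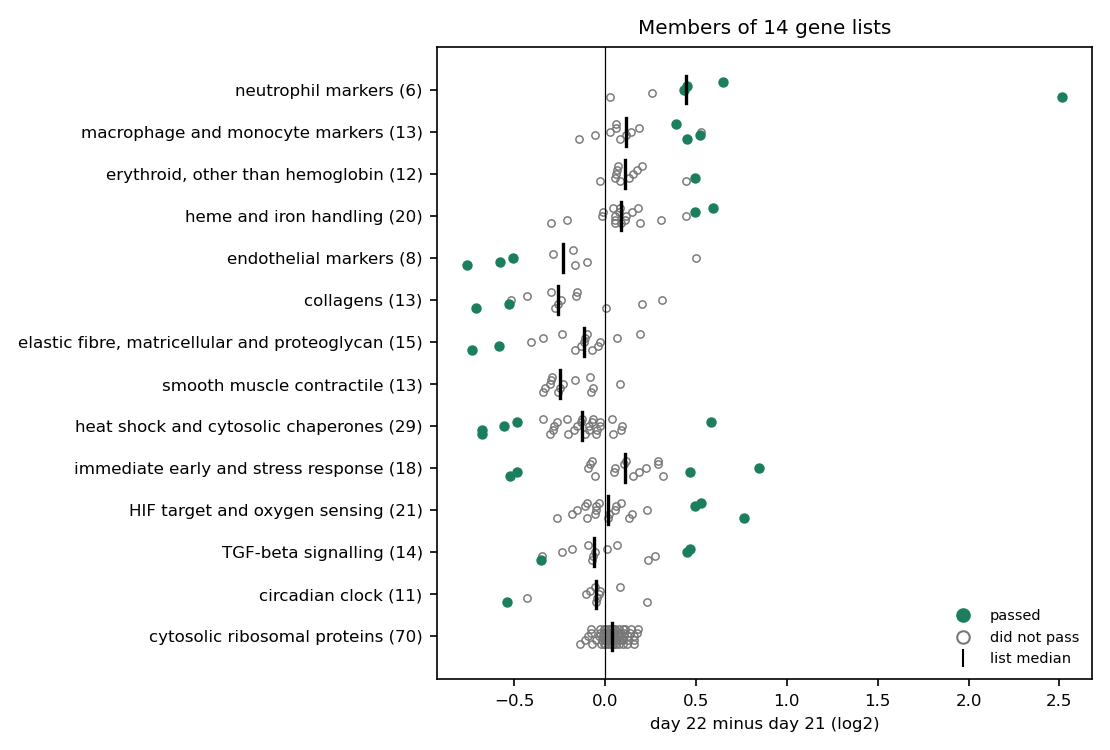
Difference of the log2 ratio, day 22 minus day 21 (horizontal axis), for the tested members of 14 gene lists, with the number of members in parentheses; filled points passed, open points did not, and the bar is the list median. The neutrophil list lies to the right of 0 and the endothelial, collagen, smooth muscle and heat shock medians lie to the left, at -0.23, -0.26, -0.25 and -0.13, while the 70 cytosolic ribosomal protein genes have a median of 0.04.

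Among clock genes, which run a daily cycle of transcription in lung as elsewhere, 1 of 11 fell and none rose. Over all features 0.469% fell. Ciart, a repressor that acts on the clock's activator pair, had log2 ratios of -0.42, -0.44, -0.77 and -0.46 at day 22 and 0.17, 0.08, -0.21 and 0.01 at day 21 (-0.54 ± 0.09, adjusted p = 0.019, at most 0.10 without 1 array). It was below control on all 4 arrays of day 22 and on 1 array of day 21. Arntl, which encodes an activator of that pair, averaged 1.09 ± 0.17 at day 22 and 1.52 ± 0.27 at day 21 (SD, n = 4 each) and its difference did not pass (-0.43, adjusted p = 0.19). Nr1d2, a nuclear receptor that represses Arntl, averaged -0.75 on 3 arrays of day 22 and -0.89 on 4 of day 21 (0.08, adjusted p = 0.72). The labels give no hour of sampling. The clock activators bind the E-box CACGTG, and the Ciart window held 3 copies. The stretch that holds them lies at chr3:95882239-95882358 on the minus strand (GRCm38.p6, RefSeq) and ends 11 bases before the annotated start, with the copies in capitals.
Ciart: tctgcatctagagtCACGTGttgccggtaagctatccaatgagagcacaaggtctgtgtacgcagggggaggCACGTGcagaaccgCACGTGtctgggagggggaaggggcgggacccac
Of all promoter windows 7.15% held at least 1 copy. By gene, 7 of 36 lower genes (19.4%), 4 of 36 higher genes (11.1%) and 707 of 5490 tested genes (12.9%) held it. The shorter motif ACGTG, the core of the hypoxia response element, which also lies within every CACGTG, was found for 11 of 36 lower genes (30.6%), 10 of 36 higher genes (27.8%) and 1710 of 5490 tested genes (31.2%).

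Targets of the hypoxia-inducible factors and oxygen-sensing genes showed 3 increases and no decrease among 21 measured, with a median of 0.02. Of all features 0.7% rose and 0.469% fell. The count of increases was 1 to 3 when any 1 array was left out. It was 0 without the pair term and in replicates 3 and 4 alone. Slc2a3, a glucose transporter, had log2 ratios of 0.20, 0.09, -0.19 and 0.07 at day 22 and -0.52, -0.65, -0.88 and -0.85 at day 21 (0.77 ± 0.08, adjusted p = 0.0025). Igfbp3, which binds insulin-like growth factors, had -0.30, -0.33, -0.38 and -0.24 at day 22 and -0.62, -0.92, -0.77 and -1.06 at day 21 (0.53 ± 0.10, adjusted p = 0.030, at most 0.11 without 1 array). The other one was Tfrc, given above. All 3 had means below the control level at day 21. Hif1a itself averaged -0.01 ± 0.09 at day 22 and -0.07 ± 0.20 at day 21 (SD, n = 4 each, adjusted p = 0.79). In glycolysis 1 of 12 fell, Pfkl, a subunit of phosphofructokinase (-0.39 ± 0.08, adjusted p = 0.038, 0.087 with the replicate number as a block and at most 0.19 without 1 array).

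Immediate early and stress-response genes split, with 2 of 18 higher and 2 lower, where 0.7% of all features rose and 0.469% fell. Atf3, a transcription factor induced by many cell stresses, had log2 ratios of 0.97, 0.89, 0.75 and 0.74 at day 22, against 0.08, 0.04, -0.13 and -0.03 at day 21 (0.85 ± 0.07, adjusted p = 0.00051). Atf3 moved away from the control level, since it passed against control at day 22 (adjusted p = 1.0e-05) and not at day 21 (adjusted p = 0.92). Rgs2, which shortens G protein signalling, stood at -0.15, -0.11, -0.12 and -0.10 at day 22 and -0.54, -0.62, -0.70 and -0.48 at day 21 (0.47 ± 0.07, adjusted p = 0.015, at most 0.090 without 1 array). Sgk1, a kinase induced by glucocorticoids and by osmotic stress, had 0.04, -0.04, 0.10 and 0.14 at day 22 and 0.56, 0.44, 0.67 and 0.65 at day 21 (-0.52 ± 0.07, adjusted p = 0.0062). Gadd45g averaged 0.30 ± 0.28 at day 22 and 0.79 ± 0.43 at day 21 (SD, n = 4 each) and fell with overlapping arrays (-0.49 ± 0.09, adjusted p = 0.029, at most 0.14 without 1 array). Of the 8 glucocorticoid-responsive genes 1 rose (Lcn2) and 1 fell (Sgk1), and of 10 inflammatory mediators 1 rose (Lcn2) and 1 fell (Cxcl12).

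Prnd, the gene of the prion-like protein doppel, had the highest day 22 mean of all called genes outside the hemoglobin signal, with log2 ratios of 1.49, 1.39, 1.24 and 1.06, against 0.13, 0.24, 0.29 and 0.70 at day 21 (0.95 ± 0.13, adjusted p = 0.0087, and 0.051 without replicate 2 of day 22). The difference was 1.26 in replicates 1 and 2 and 0.65 in replicates 3 and 4. Tax1bp1, an adaptor in selective autophagy, had -0.12, -0.10, 0.22 and 0.10 at day 22 and -0.84, -0.78, -0.70 and -0.67 at day 21 (0.77 ± 0.07, adjusted p = 0.00084), and its mean had been between -1.01 and -0.73 at all 5 time points of hypoxia. Ctla2a and Ctla2b, close relatives that inhibit cysteine proteases, differed by 0.57 ± 0.10 and 0.59 ± 0.11 (adjusted p = 0.023 and 0.032, at most 0.11 and 0.13 without 1 array). Transcripts of close copies cannot be told apart on cDNA spots, so the 2 values may share signal.

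In the transforming growth factor beta pathway, which drives collagen deposition and smooth muscle growth in the vessel wall, 2 of 14 genes rose and 1 fell. The median was -0.06, and over all features 0.7% rose and 0.469% fell. Smurf2, a ubiquitin ligase that limits the pathway, averaged -0.13 ± 0.18 at day 22 and -0.59 ± 0.07 at day 21 (SD, n = 4 each), a difference of 0.47 ± 0.07 (adjusted p = 0.015, at most 0.081 without 1 array). Tgfbi, a matrix protein induced by the pathway, averaged -0.02 ± 0.16 at day 22 and -0.47 ± 0.23 at day 21 (0.45 ± 0.07, adjusted p = 0.017, at most 0.074 without 1 array). Tgfbr2, the type II receptor, averaged -0.11 ± 0.12 at day 22 and 0.25 ± 0.04 at day 21 (-0.35 ± 0.07, adjusted p = 0.035, 0.082 with the replicate number as a block and at most 0.18 without 1 array, lost in all 8 such fits). In the related bone morphogenetic protein and pulmonary hypertension list none of 14 genes passed in limma, nor any at an unadjusted p under 0.05. Bmpr2, the receptor whose loss causes heritable pulmonary hypertension in humans, averaged -0.38 ± 0.39 at day 22 and -0.54 ± 0.29 at day 21 (SD, n = 4 each, difference 0.16, adjusted p = 0.57). Tgfbr3, the co-receptor betaglycan, averaged -0.64 ± 0.20 at day 22 and -0.92 ± 0.31 at day 21 (difference 0.27, adjusted p = 0.47).

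The remaining lists held few calls, where 0.7% of all features rose and 0.469% fell. At an unadjusted p under 0.05, 6.1% of all features were higher and 6.61% lower. Among 12 angiogenesis and growth factor genes 1 rose (Igfbp3) and 2 fell, Cxcl12 and Igfbp5, another binding protein of insulin-like growth factors (-0.41 ± 0.08, adjusted p = 0.033, 0.065 with the replicate number as a block and at most 0.12 without 1 array). Of 49 cell cycle genes 1 fell, Top2a, the topoisomerase of dividing cells (-0.45 ± 0.09, adjusted p = 0.038, 0.074 with the replicate number as a block and at most 0.14 without 1 array), and its 2 spots differed in size, at -0.71 and -0.19. Of 25 antioxidant genes 1 rose, Gclc, the catalytic subunit that starts glutathione synthesis (0.34 ± 0.07, adjusted p = 0.039, 0.092 with the replicate number as a block and at most 0.17 without 1 array, lost in all 8 such fits). Of 50 translation factors 1 rose, Eif2s3y, a Y-linked subunit of an initiation factor (0.41 ± 0.08, adjusted p = 0.034, 0.072 with the replicate number as a block and at most 0.17 without 1 array). No gene passed in limma among 70 cytosolic ribosomal protein genes and 57 oxidative phosphorylation subunits, where at an unadjusted p under 0.05 there were 0 of the ribosomal genes and, of the subunits, 2 higher and 1 lower. Among the other lung cell markers none passed in limma, with 11 fibroblast and pericyte genes (at an unadjusted p under 0.05, 1 higher and 4 lower), 10 airway genes (1 higher), 3 alveolar type I genes (1 lower) and 3 lymphocyte genes (0). The 14 interferon genes (2 higher at an unadjusted p under 0.05) and the 21 endoplasmic reticulum chaperones (1 higher and 2 lower) had no call either. In all, 22 of the 42 lists held at least 1 call.

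The 2 replicate pairs behaved differently, and the calls are features on which both moved the same way. Over all features, arrays of the 2 days correlated with a median Pearson r of 0.50 when they came from the same pair and of -0.20 across the pairs, with a lowest value of -0.32 (day 22 replicate 2, day 21 replicate 3). These are correlations across features, which are not independent replicates. The day 22 minus day 21 differences of the pairs had an r of 0.21 across features. Among the 114 calls outside the hemoglobin signal all had the same sign in both pairs, where 55.4% of all features apart from hemoglobin did, which follows from calling on the mean of both. In replicates 1 and 2 alone 52 of the 114 passed, and in replicates 3 and 4 alone 2 did, S100a9 and Cdk19. Those 2 were also the only features that passed when a random block for day and pair took the place of the pair term. The within-block correlation of that fit was 0.55. With the sign of replicates 3 and 4 turned round no feature passed in limma (556 at an unadjusted p under 0.05). That fit measures how far the pairs moved apart. Features that moved alike in both could hardly pass in it, so it is no check on the calls. When 1 array was left out at a time, 27 of the 57 named genes with a call kept it in all 8 fits, and the highest adjusted p of those that did not is given beside them. Without the pair term 12 of the 57 passed, and with all 36 arrays 47 did.

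**Figure D4:**
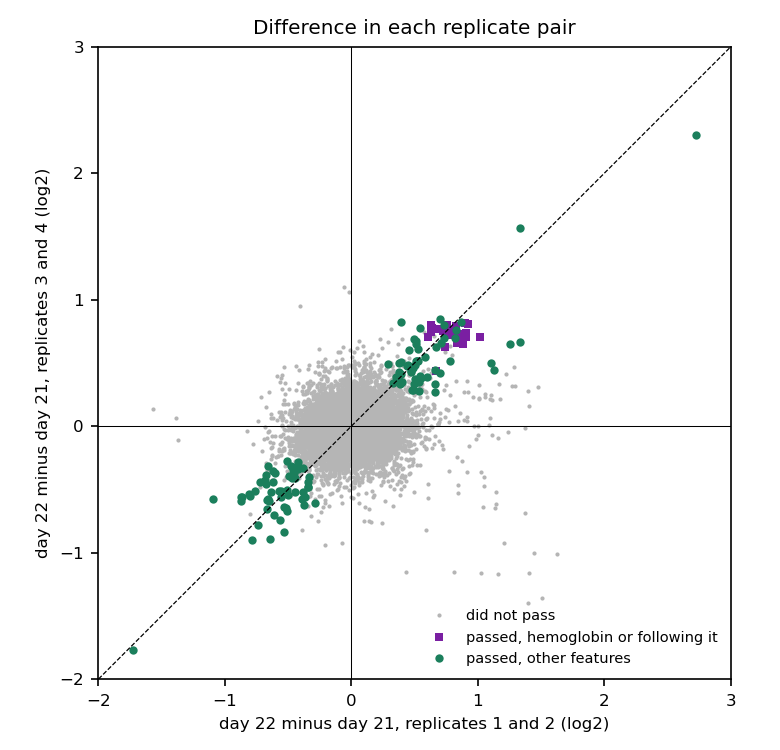
Difference of the log2 ratio, day 22 minus day 21, in replicates 3 and 4 (vertical axis) and in replicates 1 and 2 (horizontal axis) for all tested features; the dashed line marks equal differences. The called features lie in the quadrants where both pairs have the same sign, and the uncalled features toward the lower right have a positive difference in replicates 1 and 2 and a negative one in replicates 3 and 4.

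Days 24 and 14 gave a comparison across the same change of pressure on arrays and controls that the fit above does not use. The features set apart for following hemoglobin, however, were picked on all 36 arrays, these included. Day 24 minus day 14, fitted in the same way, had 319 called features of 12105 (2.64%), 187 higher (1.54%) and 132 lower (1.09%). Of the 114 calls, 111 had a value there, and 97 of them (87.4%) had the same sign, against 61.1% of all features apart from hemoglobin. Of those 111, 37 passed in the same direction and 1 in the opposite direction, Rbm3, at 0.41 for day 24 minus day 14 (adjusted p = 0.028). Of all 11883 features apart from hemoglobin with a value there, 245 passed in the same direction and 40 in the opposite direction. S100a9 differed by 2.05 and Cdk19 by -1.54 (adjusted p = 0.00018 each), Ms4a6d by 1.33 (adjusted p = 0.00021), Mfap4 by -1.19 (adjusted p = 0.0041), Mest by -1.04 (adjusted p = 0.0012) and Hsph1 by -1.02 (adjusted p = 0.0053). Prnd (-0.17, adjusted p = 0.37), Atf3 (0.47, adjusted p = 0.075), Ltf (0.11, adjusted p = 0.59), Tfrc (-0.03, adjusted p = 0.91) and Ciart (-0.30, adjusted p = 0.19) did not pass between those days. Of the 12 erythroid genes other than hemoglobin 4 had the same sign there, and the 3 named hemoglobin genes had the opposite sign, with a median of -0.38. No feature set apart with hemoglobin had the same sign there. The same-sign count was 7256 of 11921 features with them and 7256 of 11883 without them. The 87.4% thus leaves out 18 hemoglobin-annotated and 10 following features that passed for day 22 minus day 21.

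**Figure D5:**
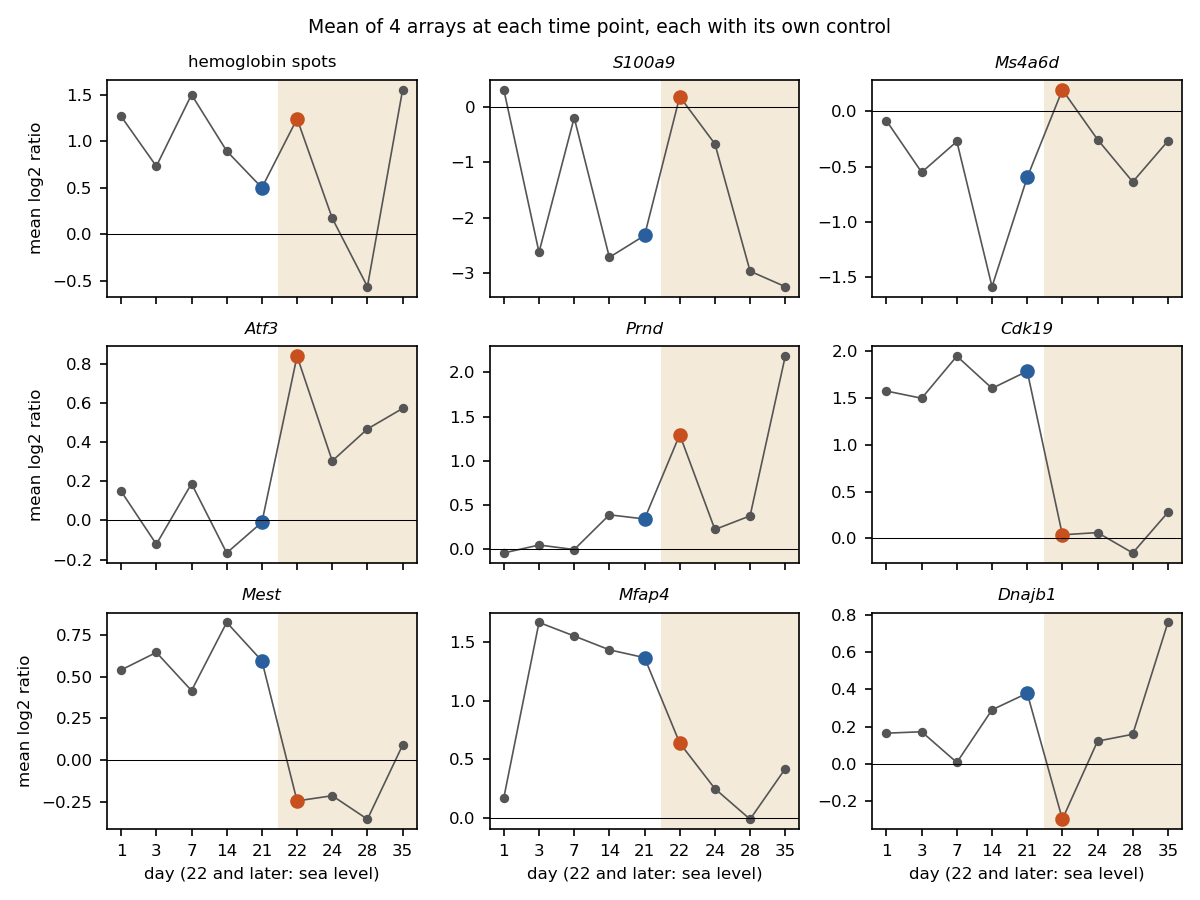
Mean log2 ratio over 4 arrays (vertical axes, each with its own scale) for the hemoglobin spots and 8 genes, picked after their values were seen, at the 9 time points (horizontal axis, not to scale), with day 22 in orange, day 21 in blue and the days at sea level shaded. Cdk19 stays between -0.15 and 0.28 from day 22 on, while S100a9 and the hemoglobin spots move up and down on both sides of the return to sea level.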

How the data were processed

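Whole-lung RNA was measured on spotted 2-colour cDNA arrays. Per the labels' protocols, the authors deposited log2 ratios of median intensities after background correction, removal of flagged spots and lowess normalisation, and nothing records a dye swap. Channel intensities were not used here, so signal over background is unknown, and precision is limited by how many arrays there are. Of 15388 spots, 14336 to 14963 had a value on each of the 8 arrays, with medians of -0.01 to 0.01 and SDs of 0.22 to 0.29.

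From these, 9598 spots with 1 symbol in the platform annotation were averaged into 6971 genes. The 514 spots with several symbols and the 5276 with none were kept as unnamed features. Features with at least 3 values a day were fitted with limma 3.58.1 (lmFit, eBayes) in R 4.3.3, with day and replicate pair as terms and Benjamini-Hochberg adjustment over 12150 features. The fit was tested on simulated data with independent noise on each array. That test does not cover correlation left between arrays of a day and pair. The within-block correlation of 0.55 was estimated without the pair term. It therefore also holds the pair difference that the main fit takes out. Same-numbered arrays of the days deviated together (r of 0.62, 0.54, 0.69 and 0.31 for replicates 1 to 4), so the replicate number was also used as a block. Most of that is shared by the pair: with pair means removed, r was 0.16, 0.16, 0.061 and 0.061, and replicates 2 and 4 did not match their own number best. The labels give only the numbers.

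The comparison, the gene lists and the rules were chosen with earlier results of these data known. Named are up to 15 genes a direction with the largest difference among those that passed, did not overlap and had 1 sign in both pairs, up to 4 passing members of each list (else up to 2 of lowest p), and 12 chosen genes. Promoter windows are from RefSeq (GRCm38.p6), and 36 of 44 higher and 36 of 43 lower named genes had one.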

Additional observations from a re-analysis of the deposited data

Results flagged for a closer look

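Among the named genes, 5 of 201 groups of 4 arrays held an array that stood apart from the other 3 by more than Dixon's critical value, taken on the gap over the range, where chance gives about 1 in 20. Ciart was -0.77 on replicate 3 of day 22, where the other 3 arrays lay between -0.46 and -0.42. Tfrc was -0.25 on replicate 3 of day 21, against -0.63 to -0.61 on the others. Cdh5 was 0.050 on replicate 2 of day 21, against 0.26 to 0.29. Id2, an uncalled target of bone morphogenetic protein signalling, was -0.65 on replicate 3 of day 21, against -0.31 to -0.28. Tgfbr3 was -1.38 on replicate 4 of day 21, against -0.77 to -0.76. The cause was not tested for any of the 5.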

How the results depend on the processing

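The count of 142 called features was 2 with a random block for day and pair in place of the pair term. It was 2 in replicates 3 and 4 alone and 16 without the pair term. It was 0 with the sign of replicates 3 and 4 turned, a choice made after seeing the data. The turned fit measures how far the pairs moved apart, so its count does not bear on the 142. Under the replicate block it was 127 (106 shared with the 142), and no named gene lost its call there beyond the 8 whose values stand in the report. Leaving out 1 array gave 42 (without replicate 2 of day 22) to 189 (without replicate 4 of day 22) calls. Without replicates 1 or 3 of day 22 it was 45 or 59, and without replicates 1, 2 or 3 of day 21 it was 83, 86 or 88. Between 11 and 30 of the 57 named calls were lost without any 1 of the 8 arrays. The fewer arrays and degrees of freedom are part of these settings, and other causes were not tested. The count was 183 in replicates 1 and 2 alone, 144 with all 36 arrays (101 shared with the 142), 152 with an interaction, 148 after median centring, 133 at a common spread, 149 with genes alone (73 higher, 76 lower) and 196 with each spot on its own. With all 36 arrays 47 of the 57 named calls passed; those lost include Stfa1, Lyz2, Lilr4b and Cttnbp2 (adjusted p of 0.20, 0.16, 0.15 and 0.13). No called named gene changed direction under any alternative but the turned sign, where single genes were not refitted. The hemoglobin difference was 0.74 with the replicate block (exact p = 0.125), 0.77 and 0.72 in replicates 1 and 2 and in 3 and 4 alone (exact p = 0.333 each, the smallest 2 against 2 allows), and 0.61 to 0.89 without 1 array, with an exact p of 0.0571 when a day 22 array was left out and 0.0286 when a day 21 array was. Directions that turned were those of uncalled genes: Mt1 (-0.0098) and Hif1a (-0.057) in replicates 3 and 4 alone, Ighm in replicates 1 and 2 alone (-0.11), at a common spread (-0.013) and without 1 array (-0.035 to 0.051), H2-DMa without 1 array (-0.12 to 0.020) and Krt19 in replicates 3 and 4 alone (0.064) and without 1 array (-0.16 to 0.064).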

Other observations

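A group of spots behaved differently on a single array. On replicate 4 of day 22, 31 of 11408 features with values on all 4 arrays lay over 1 log2 unit below the other 3 arrays of the day, and none lay as far above, where the other 7 arrays each had 0 to 5 such features in either direction. None of these features passed in limma. Kcnn4, a calcium-activated potassium channel, was chosen as an example after its values were seen. It stood at 1.18, 0.91, 0.37 and -3.09 on the day 22 arrays and at -0.27, -0.45, 0.03 and 0.04 on the day 21 arrays. Aurkb, a mitotic kinase, stood at 0.99, 0.78, 0.57 and -1.78 at day 22 and at -0.22, -0.30, -0.04 and 0.07 at day 21.

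Ampd3, an AMP deaminase found in red cells among others, showed the replicate pairs apart, and it too was chosen after its values were seen. Its log2 ratios were 0.08, -0.22, 0.88 and 0.56 at day 22 and -1.63, -1.31, 0.56 and 0.33 at day 21, so that the difference was 1.40 in replicates 1 and 2 and 0.28 in replicates 3 and 4 (0.84 over both, adjusted p = 0.095).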
